A study of Mus musculus with 8 samples.

Results

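The genes described here were 45 mouse genes of the NOD-like receptor pathway, the inflammasomes and NF-kB signalling, given as a list of gene symbols. All 45 were among the 41388 features counted, and 36 of them passed the filter on low counts that left 12270 genes to test. NOD-like receptors are cytosolic sensors of microbial fragments and of damage. NOD1 and NOD2 act through the kinase RIPK2, ubiquitin ligases of the inhibitor of apoptosis family and the TAK1 and IKK kinases to release the transcription factor NF-kB, while NLRP3, NLRP6 and NLRC4 gather an adaptor and caspase-1 into an inflammasome that matures IL-1β and IL-18 and cuts the pore protein gasdermin D. In liver these parts are shared between hepatocytes and resident macrophages, the Kupffer cells.

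RNA was sequenced from liver of db/db mice, which lack a working leptin receptor and become obese and diabetic, of strain C57B/6J by the labels and male by the study's methods. Littermates were randomised at 5 weeks of age, were given adenovirus through the tail vein and were 10 weeks old at sampling. The vector carried green fluorescent protein in 4 libraries (AdGFP) and the NAD salvage enzyme NAMPT in 4 libraries (AdNAMPT), with 4 mice per group by the study's legend, so that each library was taken as 1 mouse. Overexpression lasted 4 to 5 weeks by the series' design text, whereas the study's methods describe a much shorter time before assay of adenovirus-treated mice; the promoter of the vectors was not given in the sources used here, so their expression cannot be assigned to 1 cell type. Both groups carried the db/db mutation and received adenovirus, so neither group shows lean liver or liver without virus. The question put to these genes was whether their transcripts differed between NAMPT and GFP delivery in diabetic liver.

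Libraries held 12006713 to 19879814 counts. Levels within a gene are given as normalised CPM, that is reads scaled to a common library total (CPM) after TMM scaling, and levels between genes as RPKM, which divides CPM by exonic length. Nampt, the delivered gene, had normalised CPM of 107, 149, 160 and 148 in the AdGFP libraries and 144, 120, 172 and 168 in the AdNAMPT libraries, in the order of replicates 1 to 4 used throughout. The groups overlapped, with a fold of 1.06 (95% interval 0.838 to 1.33) and a limma adjusted p of 0.915, so that the counts did not show the delivery and group names below mean the libraries labelled AdGFP and AdNAMPT. The 8 hepatocyte markers found summed to 110900 to 134200 normalised CPM in AdGFP and 100800 to 129000 in AdNAMPT. Reads on Gm42418, a feature known to collect ribosomal RNA reads, made up 0.996% to 2.25% of counts in AdGFP and 0.200% to 0.233% in AdNAMPT, and mitochondrial ribosomal RNA 1.77% to 2.56% in AdGFP and 0.863% to 1.62% in AdNAMPT. The part of these differences between the groups in the values below was not tested. AdNAMPT replicate 1 had the smallest total and the lowest sample weight in the fit (0.440, the others 0.811 to 1.41).

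None of the 36 genes tested differed between the groups by limma with 0.05 as the largest adjusted p allowed, a threshold that 0.277% of all genes passed (0.0163% higher and 0.261% lower in AdNAMPT). The lowest adjusted p among them was 0.108, for Xiap, and the highest was 0.990. Xiap and Nfkbia, 2 genes and both lower in AdNAMPT, had an unadjusted p under 0.05, which is 5.56% of the 36, beside 9.69% of all genes in either direction, 4.65% higher and 5.04% lower. The 4 libraries of a group lay wholly apart from those of the other for 2 genes, Xiap and Il18, again both lower, which is 5.56% beside 4.79% of all genes, 2.09% higher and 2.7% lower. With counts of 2, these shares cannot be told apart from those of all genes. By edgeR's quasi-likelihood and exact tests 0 of the 36 passed the adjusted threshold as well, and by DESeq2, which called 0.611% of all genes, Xiap alone passed. Leaving out a library could move the count at an unadjusted limma p under 0.05, and the share of all genes did not always move the same way. The count became 3 without AdGFP replicate 1 or replicate 3, while the share fell to 7.841% and 9.032%. It was also 3 without AdNAMPT replicate 4 (11.33%) and stayed at 2 without AdGFP replicate 2 (9.838%). The count became 1 without AdGFP replicate 4 (beside 7.785% of all genes). It became 4 without AdNAMPT replicate 1 (10.48%) or replicate 2 (10.36%) and 5 without AdNAMPT replicate 3 (12.13%). Only Xiap was in every one of these counts. The count of genes whose groups lay apart became 4 without AdGFP replicate 1, AdGFP replicate 4 or AdNAMPT replicate 1. With a library left out, groups of any gene lie apart more easily by chance. The share of all genes was not counted for these fits, so this rise cannot be read as a trait of the 36 genes.

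The log2 fold changes, AdNAMPT over AdGFP, ran from -0.32 to 0.45 with a median of 0.06, beside a median of 0.0015 over all genes. Estimates were above 0 for 23 genes, beside 50.4% of all genes, and below 0 for 13. With library size alone as the scaling they were 28 and 8. The median over all genes then rose to 0.09, so the whole table shifted upward and not these genes alone. The data also bounded what could have been missed. For 27 of the 36 genes (75%), the 95% interval of the fold lay inside 1.5-fold in either direction, beside 74.1% of all genes. The 9 genes with wider intervals were Nlrp3, Pycard, Card6, Txnip, Casp1, Casp4, Il1b, Ccl5 and Cxcl1, so for these a change of that size was not excluded at this depth and spread.

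**Figure D1:**
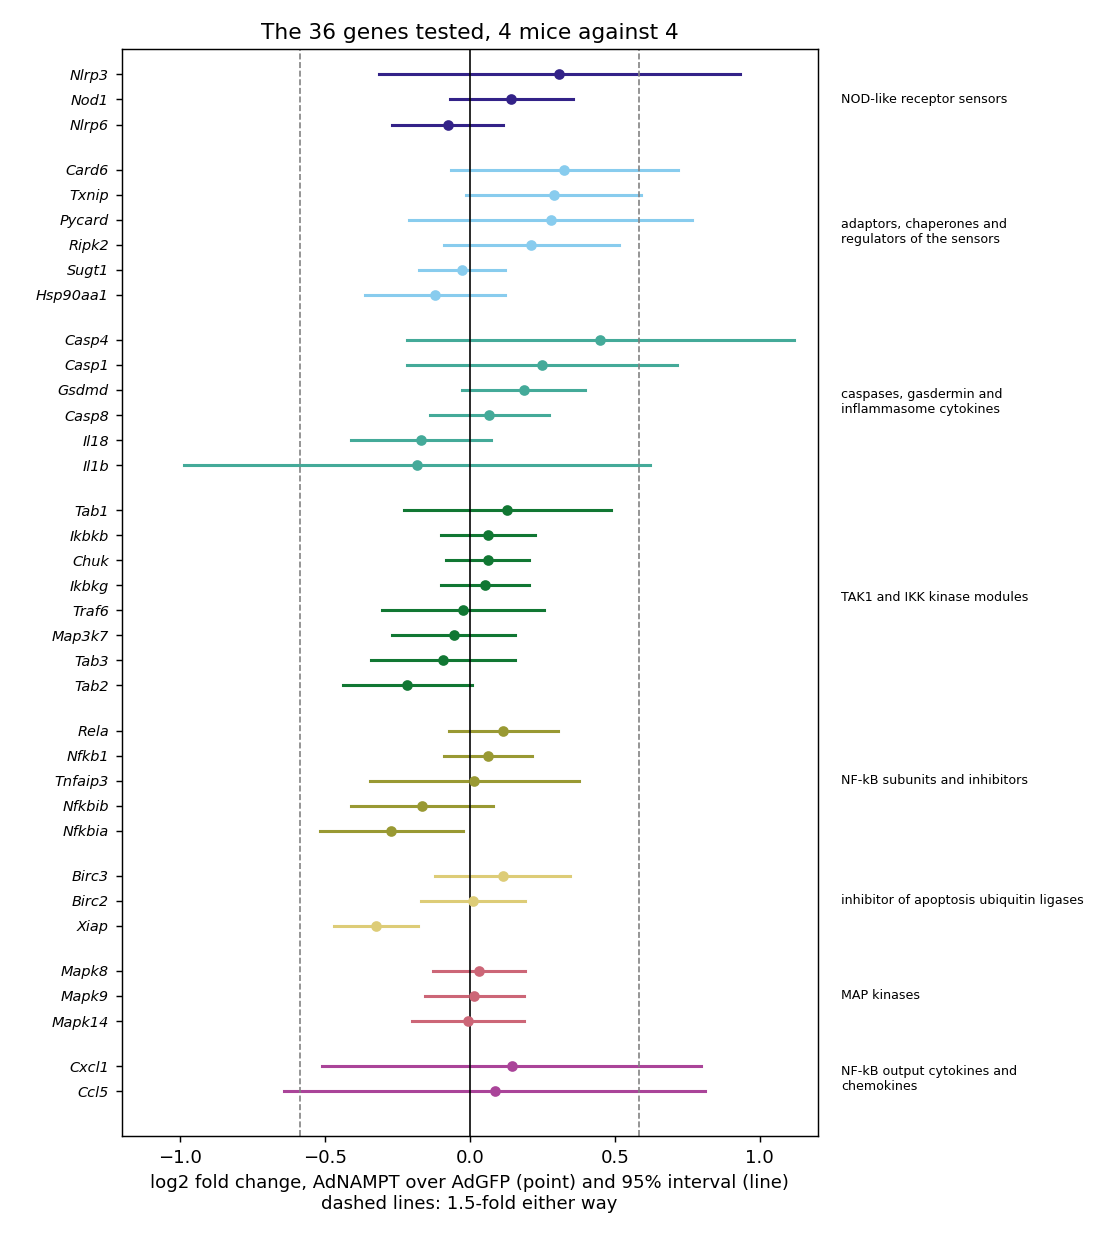
Log2 fold change of each of the 36 genes tested, AdNAMPT over AdGFP, as points with the 95% limma interval as lines, grouped by role, with dashed lines at 1.5-fold either way. The intervals of Xiap and Nfkbia lie wholly below 0, those of the TAK1 and IKK kinases all lie inside the dashed lines, and those of Casp4, Il1b, Cxcl1 and Ccl5 are among the widest.

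Levels differed widely among the genes, and the roles were interleaved. Mean RPKM over the 8 libraries was highest for Chuk (29.5), which encodes the kinase IKKα, followed by Txnip (28.0), Nfkbia (23.8), Mapk14 (18.0), Il18 (16.6) and Sugt1 (15.5). In all, 12 genes reached 10 RPKM, 31 reached 1 RPKM and 41 reached 0.1 RPKM. Neighbours in this order mostly could not be told apart: of 44 neighbouring pairs, the libraries of only 1 did not overlap, with Nfkb1 (3.90 to 4.95 RPKM) above Nod1 (2.52 to 3.67 RPKM).

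**Figure D2:**
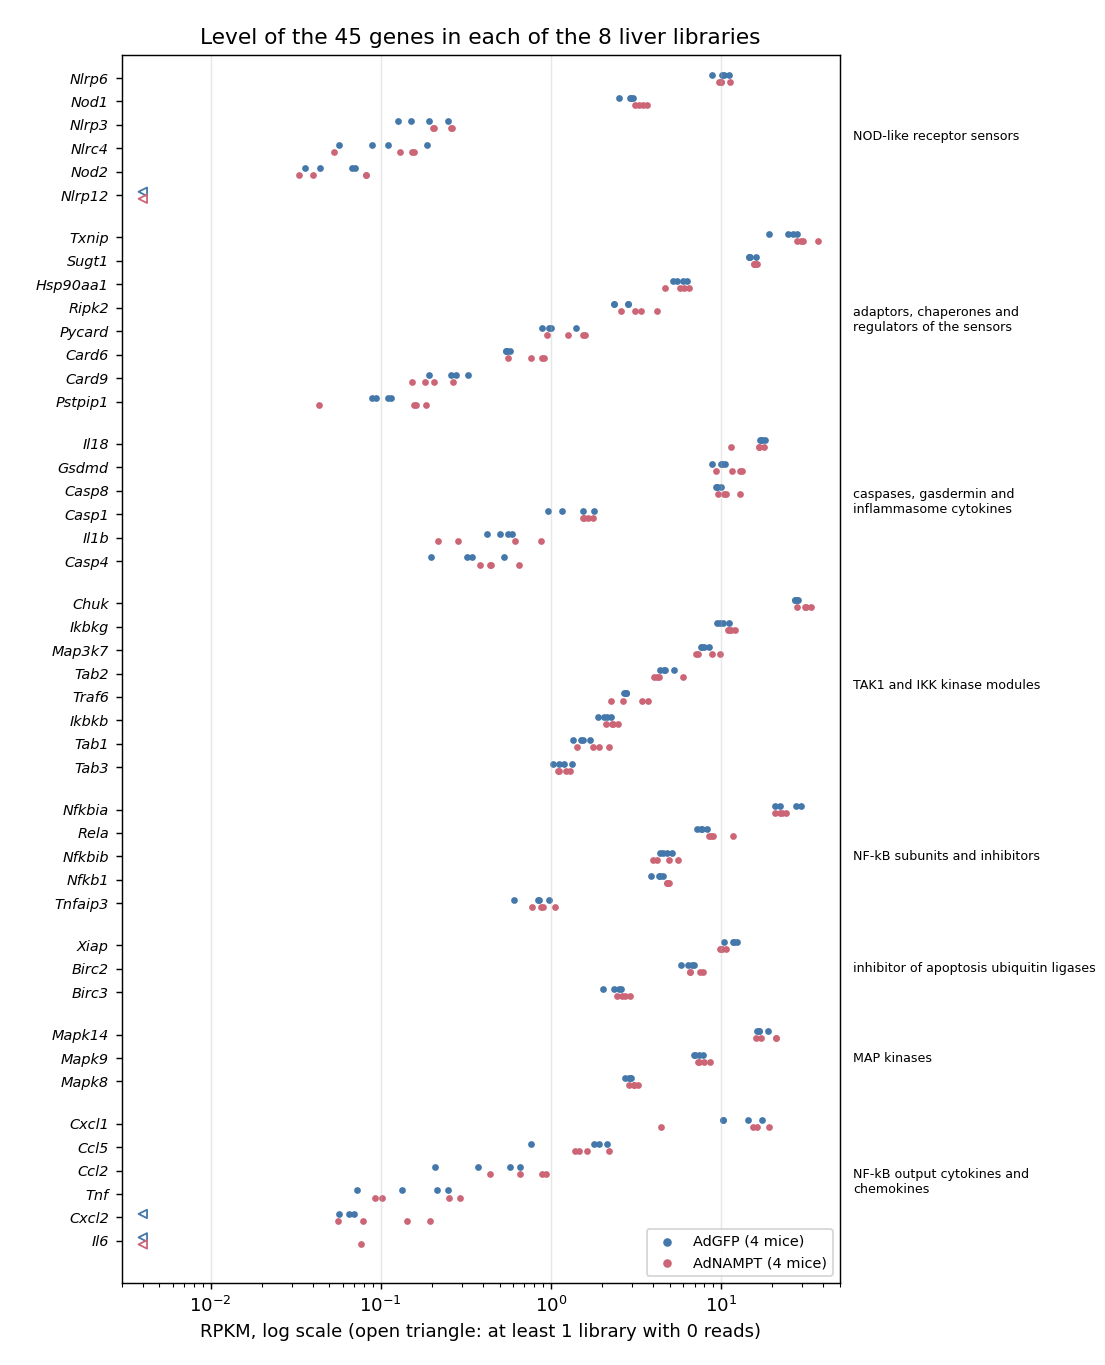
RPKM of all 45 genes in each library on a log axis, in blue for AdGFP and red for AdNAMPT, grouped by role and ordered by mean within a role, with an open triangle where at least 1 library of the group had 0 reads. Chuk and Txnip lie near 30 RPKM, Nlrp3, Nlrc4 and Nod2 below 0.3 RPKM, and Nlrp12 had 0 reads in every library.

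Nlrp6, an inflammasome sensor known best from gut epithelium, was the most abundant sensor at 10.2 RPKM, against 3.13 for Nod1, 0.206 for Nlrp3, 0.117 for Nlrc4 and 0.0569 for Nod2. Nlrp6 (chromosome 7, 140920902 to 140929192, GRCm38) stood at 47.3, 57.6, 53.9 and 59.3 normalised CPM in AdGFP and at 49.0, 49.3, 55.4 and 51.0 in AdNAMPT. All AdNAMPT values lay within the AdGFP range, with a log2 fold change of -0.08 (SE 0.09) and a limma adjusted p of 0.824. Nod1 (chromosome 6, 54923942 to 54972612), the sensor of peptidoglycan from mainly Gram-negative bacteria, stood at 14.1, 14.1, 11.6 and 13.7 normalised CPM in AdGFP and at 14.9, 13.7, 15.6 and 14.5 in AdNAMPT. Of the AdNAMPT libraries 3 exceeded every AdGFP library and replicate 2 did not, with a log2 fold change of 0.14 (SE 0.10) and a limma adjusted p of 0.677. Nlrp3, the sensor of the best known inflammasome, passed the filter on 7 to 21 reads a library, with a log2 fold change of 0.31 (SE 0.28) and an interval from 0.805-fold to 1.91-fold.

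The other sensors did not pass the filter. Nod2 had 16 reads over the AdGFP libraries and 19 over the AdNAMPT libraries, and Nlrc4 had 26 and 31. Nlrp12 had 0 reads in each of the 8 libraries, which allows at most 0.151 to 0.250 CPM (3 counts a library, counting error only). In a fit without the filter the log2 fold changes were 0.08 (SE 0.44) for Nod2 and -0.03 (SE 0.47) for Nlrc4, with limma adjusted p of 0.962 and 0.987.

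Txnip, which binds thioredoxin and has been described as a partner of NLRP3, was the most abundant of the adaptors, chaperones and regulators. It lies on chromosome 3 at 96557957 to 96561883 and stood at 61.2, 81.8, 89.3 and 84.3 normalised CPM in AdGFP and at 88.6, 112, 86.3 and 85.2 in AdNAMPT. AdGFP replicate 1 was the lowest and AdNAMPT replicate 2 the highest, and the other 6 libraries lay between 81.8 and 89.3. The log2 fold change was 0.29 (SE 0.14), with a limma adjusted p of 0.536. An antisense gene, Gm15441, overlaps Txnip and had 0 to 10 reads a library, and whether the counting used strand was not stated.

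Card6, a protein with a caspase recruitment domain, showed the tightest AdGFP group of this role, at 3.51, 3.68, 3.49 and 3.66 normalised CPM, against 5.24, 5.53, 3.30 and 4.65 in AdNAMPT. AdNAMPT replicate 3 lay below all AdGFP libraries and the other AdNAMPT libraries above them. Its estimate of 0.33 on the log2 scale (SE 0.18) had an adjusted p of 0.606 by limma. It was 0.56 without AdNAMPT replicate 3 (limma adjusted p 0.198) and 0.10 without AdNAMPT replicate 2 (unadjusted limma p 0.563). Pycard, the adaptor ASC that links sensors to caspase-1, gave 0.28 (SE 0.22) and Ripk2, the kinase downstream of NOD1 and NOD2, gave 0.21 (SE 0.14), with limma adjusted p of 0.735 and 0.660. The chaperone genes had estimates near 0, at -0.03 (SE 0.07) for Sugt1 and -0.12 (SE 0.11) for Hsp90aa1. Card9, an adaptor of lectin receptors, had 36 reads in AdGFP and 29 in AdNAMPT, and Pstpip1, a partner of pyrin, had 23 and 35; neither passed the filter.

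Il18, the inflammasome cytokine with constitutive transcripts, was by far the more abundant of the pair of cytokines, at 16.6 RPKM against 0.509 for Il1b. Il18 (chromosome 9, 50575273 to 50581837) stood at 12.7, 14.1, 13.0 and 12.9 normalised CPM in AdGFP and at 7.90, 11.9, 12.4 and 12.0 in AdNAMPT. Every AdNAMPT library lay below every AdGFP library, although 3 of them by little. The log2 fold change was -0.17 (SE 0.11) with a limma adjusted p of 0.665, and -0.10 without AdNAMPT replicate 1, the lowest library. Il1b gave 0.404 to 1.60 normalised CPM in AdNAMPT and 0.840 to 1.23 in AdGFP, so that the AdNAMPT libraries surrounded the AdGFP libraries. Its log2 fold change of -0.18 (SE 0.37) became 0.30 without AdNAMPT replicate 2.

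Gsdmd (chromosome 15, 75862339 to 75867404), which encodes gasdermin D, had the smallest p of the caspases, gasdermin and inflammasome cytokines. It stood at 18.9, 17.1, 19.5 and 18.6 normalised CPM in AdGFP and at 16.1, 20.6, 22.9 and 23.0 in AdNAMPT. AdNAMPT replicate 1 was the lowest of the 8 libraries and the other AdNAMPT libraries the 3 highest. The log2 fold change was 0.19 (SE 0.10) with a limma adjusted p of 0.577. Estimates were also above 0 for Casp1, the inflammasome protease (0.25, SE 0.21), Casp4, the caspase that binds cytosolic lipopolysaccharide (0.45, SE 0.30), and Casp8, the caspase of death receptors (0.07, SE 0.09), with limma adjusted p from 0.680 to 0.862 for these 3. The estimate for Casp8 was -0.04 without AdNAMPT replicate 4.

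**Figure D3:**
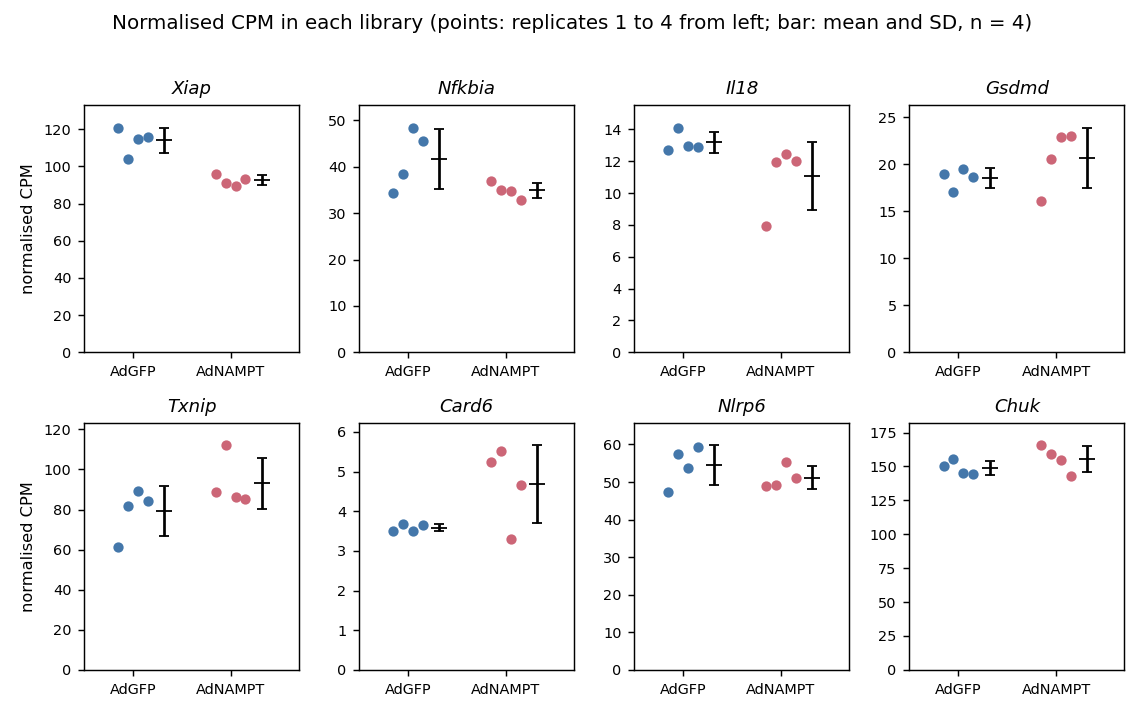
Normalised CPM of 8 genes in each library, with replicates 1 to 4 from left to right in each group and the mean with its SD (n = 4) as a bar; each axis starts at 0. Xiap is the clearest separation, with AdGFP libraries from 104 to 121 and AdNAMPT libraries from 89.6 to 95.9, and Il18 and Gsdmd show AdNAMPT replicate 1 as the lowest library.

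The genes of the TAK1 and IKK kinases, which relay the signal to NF-kB, gave no gene past the test. Their intervals lay inside 1.5-fold for all 8 genes, with 4 estimates above 0 and 4 below. Chuk (chromosome 19, 44073335 to 44107480) stood at 151, 156, 145 and 145 normalised CPM in AdGFP and at 166, 159, 155 and 143 in AdNAMPT. The groups overlapped, and the fold was 1.04 (95% interval 0.945 to 1.15). Ikbkb, which encodes IKKβ, and Ikbkg, which encodes the scaffold NEMO, gave folds of 1.05 (0.935 to 1.17) and 1.04 (0.934 to 1.15). Ikbkg overlaps G6pdx on the other strand, and whether the counting used strand was not stated. The effect of this overlap on the Ikbkg counts was not tested.

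Tab2, an ubiquitin-binding partner of TAK1, had the smallest p of this role. It lies on chromosome 10 at 7905653 to 7956230 and stood at 34.3, 31.4, 28.1 and 29.7 normalised CPM in AdGFP and at 35.6, 26.4, 24.1 and 26.0 in AdNAMPT. AdNAMPT replicate 1 was the highest library and the other AdNAMPT libraries the 3 lowest, with a log2 fold change of -0.21 (SE 0.10) and a limma adjusted p of 0.534. Map3k7, which encodes TAK1, gave -0.05 (SE 0.10), Traf6, the ubiquitin ligase upstream of it, -0.02 (SE 0.13), and the partners Tab1 and Tab3 0.13 (SE 0.16) and -0.09 (SE 0.11).

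Nfkbia encodes IκBα, which holds NF-kB in the cytoplasm and is itself a classic NF-kB target. It lies on chromosome 12 at 55489411 to 55492647 and stood at 34.4, 38.3, 48.4 and 45.5 normalised CPM in AdGFP and at 36.9, 34.9, 34.8 and 32.9 in AdNAMPT. AdGFP replicates 2, 3 and 4 lay above all AdNAMPT libraries, replicate 2 by little, while AdGFP replicate 1 lay within them. The log2 fold change was -0.27 (SE 0.11), a fold of 0.8293 (95% interval 0.699 to 0.984), with an unadjusted p of 0.0346 and an adjusted p of 0.492 by limma. Without AdGFP replicate 4 the unadjusted limma p was 0.104. The subunit genes Rela and Nfkb1 gave folds of 1.08 (0.952 to 1.23) and 1.05 (0.941 to 1.16). Nfkbib, a second inhibitor that overlaps Sirt2 on the other strand, gave a log2 fold change of -0.16 (SE 0.11), and Tnfaip3, which encodes the deubiquitinase A20 and is another feedback target, gave 0.02 (SE 0.16).

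Xiap, the X-linked inhibitor of apoptosis, is a ubiquitin ligase that modifies RIPK2 in NOD signalling as well as blocking caspases. It lies on chromosome X at 42059679 to 42109656 and stood at 121, 104, 115 and 116 normalised CPM in AdGFP and at 95.9, 91.2, 89.6 and 93.4 in AdNAMPT. The lowest AdGFP library lay above the highest AdNAMPT library, and the means were 114 ± 6.95 and 92.5 ± 2.77 (SD, n = 4 each). The fold was 0.800 (95% interval 0.724 to 0.883), a log2 fold change of -0.32 (SE 0.07). By limma the unadjusted p was 0.000431 and the adjusted p 0.108, so the gene did not pass. Over the 17 alternatives the adjusted p ran from 0.0297 (DESeq2) to 0.322 (limma without AdGFP replicate 1), with DESeq2 the only one under 0.05, and the estimate stayed between -0.35 and -0.24. The related ligases Birc2 and Birc3, which encode cIAP1 and cIAP2, gave folds of 1.01 (0.890 to 1.14) and 1.08 (0.921 to 1.27).

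The MAP kinases downstream of TAK1 had estimates close to 0. Mapk8, which encodes JNK1, stood at 28.5, 29.8, 26.3 and 27.7 normalised CPM in AdGFP and at 26.0, 29.9, 27.6 and 28.4 in AdNAMPT. Mapk14, which encodes p38α, stood at 76.6, 76.7, 75.95 and 86.5 in AdGFP and at 89.0, 75.4, 89.0 and 70.0 in AdNAMPT. In both genes the groups overlapped, with folds of 1.02 (0.915 to 1.14) and 0.996 (0.871 to 1.14), and Mapk9, which encodes JNK2, gave 1.01 (0.898 to 1.14).

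The cytokines and chemokines that NF-kB drives were low apart from Cxcl1, a chemokine for neutrophils, at 13.5 RPKM. Cxcl1 stood at 10.3, 14.95, 10.3 and 17.3 normalised CPM in AdGFP and at 4.11, 15.6, 17.7 and 14.7 in AdNAMPT. The AdNAMPT group held both the lowest and the highest library, the log2 fold change was 0.15 (SE 0.30) with a limma adjusted p of 0.920, and its sign turned to -0.08 without sample weights. Ccl5, a chemokine of T cells and other leukocytes, stood at 0.763 to 2.15 normalised CPM in AdGFP and 1.29 to 2.04 in AdNAMPT.

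The remaining outputs did not reach the filter. Il6 had 0 reads in 7 libraries and 1 read in AdNAMPT replicate 1. Tnf had 16 reads over AdGFP and 19 over AdNAMPT, Ccl2 had 30 and 55, and Cxcl2 had 3 and 8. In a fit without the filter, Ccl2, a chemokine for monocytes, had a log2 fold change of 0.61 (SE 0.39) with a limma adjusted p of 0.799, and its libraries overlapped at 4 to 11 reads in AdGFP and 6 to 20 in AdNAMPT. Transcripts of these cytokines were therefore at the edge of detection in both groups.

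The promoters of the 45 genes were searched for the letters of an NF-kB site (GGGA, then any base, then TTTCC), on both strands, in RefSeq windows on GRCm38.p6 of 250 bases before to 50 bases after the gene start. Windows were found for 36 genes (49 windows), and 5 windows held the letters (10.2%), beside 0.411% of all 32851 promoter windows. The gene list was made of NF-kB signalling genes and outputs that NF-kB drives, so its share is not independent of that choice. The 5 stretches are shown because they are the windows that held the letters, with the match in capitals and each read along the strand of its gene.
Cxcl1, chr5:90891149-90891208, plus strand: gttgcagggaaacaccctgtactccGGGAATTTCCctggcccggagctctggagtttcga
Cxcl2, chr5:90903777-90903836, plus strand: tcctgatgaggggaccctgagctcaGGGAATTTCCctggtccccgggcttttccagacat
Il6, chr5:30013045-30013104, plus strand: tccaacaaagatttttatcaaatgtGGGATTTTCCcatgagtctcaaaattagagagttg
Map3k7, chr4:31963990-31964049, plus strand: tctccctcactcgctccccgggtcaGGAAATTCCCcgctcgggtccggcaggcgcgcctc
Nfkbia, chr12:55492648-55492701, minus strand: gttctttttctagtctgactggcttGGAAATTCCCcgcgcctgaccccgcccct
In Map3k7 and Nfkbia the match is on the strand opposite to the gene. The matches begin 71, 97, 44, 92 and 29 bases before the gene start in the order shown. The genes that share the letters did not share a level, with Nfkbia at 23.8 RPKM, Cxcl1 at 13.5, Map3k7 at 8.16, Cxcl2 at 0.0829 and Il6 at 0.00958. None of the 3 that were tested passed the adjusted threshold, with log2 fold changes of -0.27 for Nfkbia, 0.15 for Cxcl1 and -0.05 for Map3k7.

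The rest of the pathway was read from a list of 114 further genes, of which 97 were tested. None passed the adjusted limma threshold, and 13 had an unadjusted p under 0.05, 9 higher and 4 lower in AdNAMPT (13.4%, beside 9.69% of all genes). Their median log2 fold change was 0.04. The list was drawn up with earlier results of these data known, so its share beside that of all genes is a description only. The 3 highest estimates among the 13 belonged to Jun, a subunit of AP-1, at 0.97 (SE 0.35), Ciita, the transactivator of MHC class II genes, at 0.69 (SE 0.26), and Naip2, a receptor that works with NLRC4, at 0.52 (SE 0.20). Jun stood at 5.88, 9.05, 11.9 and 6.41 normalised CPM in AdGFP and at 17.4, 12.5, 29.5 and 9.66 in AdNAMPT, so that AdNAMPT replicate 4 overlapped AdGFP. The 3 lowest belonged to Txn2, the mitochondrial thioredoxin, at -0.36 (SE 0.10), Ikbke, an IKK-related kinase, at -0.26 (SE 0.11), and Hsp90ab1, an HSP90 chaperone, at -0.19 (SE 0.08). Txn2 stood at 118, 141, 113 and 124 normalised CPM in AdGFP and at 84.4, 102, 103 and 81.9 in AdNAMPT, without overlap, with a limma adjusted p of 0.287 and a DESeq2 adjusted p of 0.0491. Jun, Ciita and Ikbke each overlap another gene on the other strand.

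A separate list of 36 NF-kB feedback and target genes gave 25 tested. None passed the adjusted limma threshold and 4 had an unadjusted p under 0.05 (16%, beside 9.69% of all genes), with a median log2 fold change of 0.14 over the 25, beside 0.0015 over all genes. These were Relb, an NF-kB subunit, at 0.53 (SE 0.22), Icam1, an adhesion molecule for leukocytes, at 0.46 (SE 0.15), and Il1a, which encodes IL-1α, at 0.35 (SE 0.16), together with Rel, another subunit, at -0.49 (SE 0.17). In all 4 the groups did not overlap, and with Tlr2, a lipoprotein receptor, this held for 5 of the 25 (20%, beside 4.79% of all genes). Icam1 stood at 5.38, 4.06, 4.37 and 4.81 normalised CPM in AdGFP and at 6.13, 7.71, 5.44 and 6.36 in AdNAMPT. Rel lay the other way, at 3.58, 3.60, 2.93 and 2.90 in AdGFP and 2.58, 2.18, 2.62 and 1.89 in AdNAMPT. The lowest limma adjusted p in this list was 0.411. This list was also drawn up with earlier results of these data known. Its shares and median therefore describe the listed genes and are no test of an excess over all genes.

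**Figure D4:**
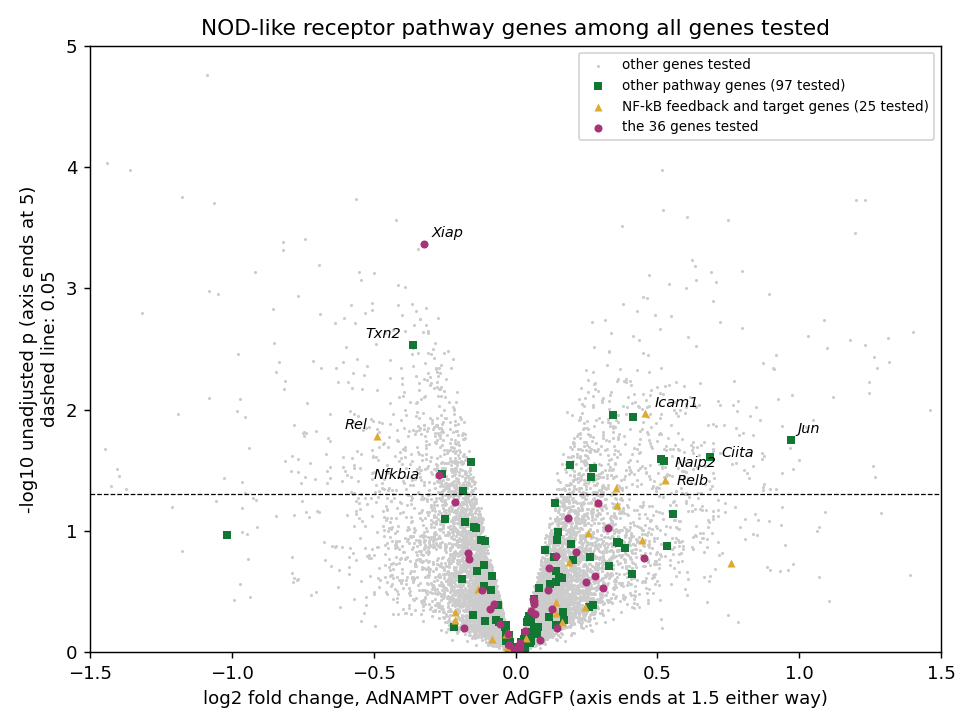
Log2 fold change, AdNAMPT over AdGFP, against -log10 of the unadjusted limma p for all genes tested in grey, the 36 genes in purple, 97 other pathway genes in green and 25 NF-kB feedback and target genes in yellow, with 45 unlisted genes beyond the axes. Xiap is the highest purple point, Jun lies farthest to the right of the listed genes above the dashed line, and most listed genes lie within the grey cloud.

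Several of these genes are expressed by leukocytes, so markers of other liver cells were read beside them. Of the 9 Kupffer cell and macrophage markers, 8 had estimates below 0, where 50.4% of all genes had estimates above 0, and 3 had an unadjusted limma p under 0.05 and were lower (33.3%, beside 5.04% of all genes lower at that p), with 0 past the adjusted limma threshold. The 3 were Vsig4 (log2 fold change -0.51, SE 0.12), Timd4 (-0.83, SE 0.23) and Clec4f (-0.45, SE 0.17), and Vsig4 had a DESeq2 adjusted p of 0.0393. For Vsig4 and Timd4, 2 of the 9 (22.2%), the groups did not overlap, beside 4.79% of all genes in either direction and 2.7% lower. The marker lists were drawn up with earlier results of these data known, so these shares are descriptions only. The 9 markers summed to 315 to 387 normalised CPM in AdGFP and 219 to 373 in AdNAMPT, with none at 0. The lowest sum, 219, was that of AdNAMPT replicate 1. This library was the lowest of the 8 for 7 of the 36 genes (19.4%, beside 22.7% of all genes) and the highest for 11 (30.6%, beside 21.5% of all genes). In bulk liver, fewer cells of a type and less RNA per cell cannot be told apart, and the part of these markers in the values above was not tested.

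**Figure D5:**
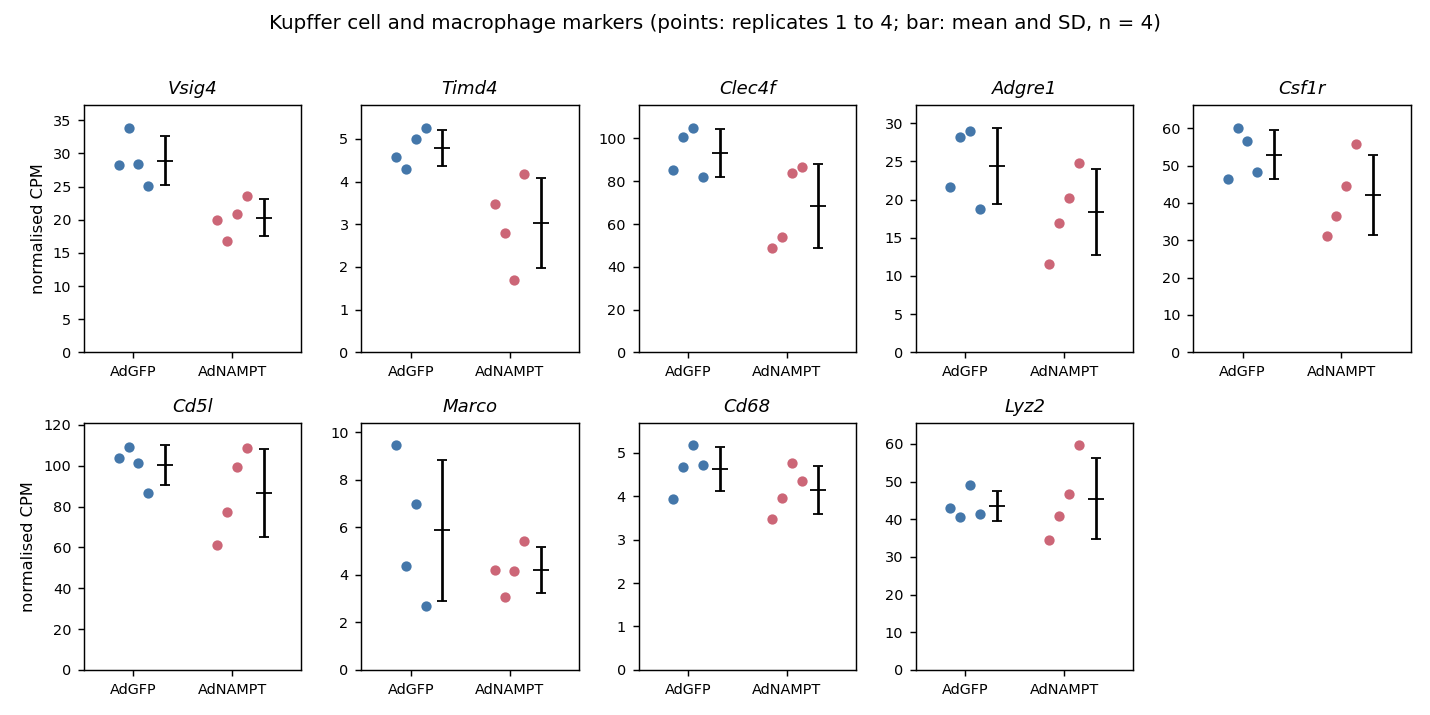
Normalised CPM of the 9 Kupffer cell and macrophage markers in each library, with replicates 1 to 4 from left to right and the mean with its SD (n = 4) as a bar; each axis starts at 0. Vsig4 and Timd4 do not overlap between the groups, and AdNAMPT replicate 1 is the lowest library for Clec4f, Adgre1, Csf1r, Cd5l, Cd68 and Lyz2.

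Markers of circulating cells were low. Monocyte and dendritic cell markers summed to 3.82 to 6.49 normalised CPM in AdGFP and 5.40 to 11.02 in AdNAMPT, neutrophil markers to 4.16 to 7.33 and 3.06 to 7.92, T and natural killer cell markers to 1.99 to 3.16 and 2.42 to 5.48, and B cell markers to 0.229 to 1.12 and 0.323 to 1.71. No marker of these lists was at 0 reads in all 8 libraries. Sums of the sinusoidal endothelial (250 to 284 and 243 to 281), stellate (337 to 374 and 328 to 392) and cholangiocyte markers (27.7 to 44.1 and 28.3 to 44.3) also overlapped between the groups. An unadjusted limma p under 0.05 was reached by 1 of 6 stellate markers (16.7%) and 1 of 5 cholangiocyte markers (20%), beside 9.69% of all genes. The first was Col1a1, a fibrillar collagen of stellate cells, with a log2 fold change of 0.64 (SE 0.24, limma adjusted p 0.453). The second was Sox9, a cholangiocyte transcription factor, at 0.81 (SE 0.33, limma adjusted p 0.487). Estimates were below 0 for 3 of the stellate and 2 of the cholangiocyte markers. In the fit without the filter, 7.114% of all genes had an unadjusted limma p under 0.05. Of the 8 T and natural killer cell markers, these included the T cell receptor genes Cd3d (1.48, SE 0.57, 0 to 7 reads a library), Cd3e (2.44, SE 0.60, 0 to 6 reads) and Cd3g (0.82, SE 0.34, 5 to 26 reads). Of the 4 B cell markers, Ms4a1 was included (2.02, SE 0.70, 0 to 9 reads). Their limma adjusted p ran from 0.279 to 0.650. The other markers of both lists did not reach that unadjusted p, with Cd4 at 0.10 (SE 0.37) and Gzmb, the only estimate below 0, at -0.32 (SE 0.35). For Cd3d every AdNAMPT library lay above every AdGFP library.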

How the data were processed

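Liver RNA of 8 db/db mice was sequenced as single short reads. Per the submitters' notes and the study's methods, the authors mapped the reads to GRCm38 with STAR (2.4.0b in the notes, another version in the methods) and assigned those with 1 unambiguous position to genes with featureCounts 1.4.5; strand use was not stated, and the labels name Ribo-Zero while the methods describe poly-A selection. The deposited counts are whole reads per feature. The deposited CPM are counts scaled to the library total, and the deposited RPKM divide CPM by exonic length; recomputing each from the counts gave the same values. The titles gave the groups, 4 AdGFP and 4 AdNAMPT, and all value columns were mapped.

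Symbols came from GENCODE M21 (40340 of 41388 features). After removal of 355 ribosomal RNA features, the 12270 genes above 1 CPM in at least 3 libraries were fitted as in the study's methods, with TMM factors and limma's quality-weighted voom and empirical Bayes steps on group alone, and Benjamini-Hochberg adjusted p of at most 0.05. Versions were limma 3.58.1, DESeq2 1.42.0 and edgeR 4.0.16 under R 4.3.3, and for tables and plots numpy 2.4.6, pandas 2.3.3, matplotlib 3.10.9 and scipy 1.17.1 under Python 3.11.15. Intervals are 95% limma intervals, and p-values are two-sided. Between libraries of a group the counts differed by far more than sampling noise (chi-square per degree of freedom 11.3 to 81.8), so each counted as 1 replicate. Depth was 12006713 to 19879814 counts, and 3 counts correspond to 0.151 to 0.250 CPM. The study's legend gives 4 mice per group for this experiment, so p-values measure the spread between mice.

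The genes and lists were chosen with earlier results of these data known, so their shares beside those of all genes are descriptions and not tests. Values in every library are given for genes with an unadjusted p under 0.05, genes whose groups did not overlap and, per role, the gene with the smallest p and that with the highest RPKM; Card6 was added to these after its values were seen, as were the reads of genes below the filter and the single cell type markers named. In the other lists, the 3 highest and 3 lowest log2 fold changes with an unadjusted p under 0.05 are named, plus Tlr2, named to complete a count, and Nampt. Gbp5 of the pathway list and the hepatocyte marker Tf were not analysed here. In simulated counts for this comparison over 12186 genes, 198 of them set to differ 3-fold, limma found 192 (97.0%) and made 8 false calls; edgeR's quasi-likelihood test found 97.5% with 13, its exact test 98.5% with 31 and DESeq2 98.0% with 32. Alternatives were those 3 tests, no sample weights in voom, scaling by library size alone or by DESeq2 size factors, no filter, a mean count of at least 10, replicate number as a block, an adjusted p of at most 0.1, and each library left out in turn (over 1 CPM in at least 2 libraries for the latter).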

Additional observations from a re-analysis of the deposited data

Results flagged for a closer look

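Among 90 groups of 4 libraries (36 genes and 9 summed marker lists in each group), 6 held a library far from the other 3 by Dixon's criterion at the 95% level (the gap to the nearest value over the range); chance gives about 1 in 20, that is 4.5. Il18 in AdNAMPT replicate 1 was 7.90 normalised CPM, the others 11.9 to 12.4. Rela in the same library was 30.9 normalised CPM, the others 23.2 to 23.7. Txnip in AdNAMPT replicate 2 was 112 normalised CPM, the others 85.2 to 88.6. Mapk14 in AdGFP replicate 4 was 86.5 normalised CPM, the others 75.95 to 76.7. The summed monocyte and dendritic cell markers of AdNAMPT replicate 4 reached 11.02 normalised CPM, the others 5.40 to 6.21. The summed neutrophil markers of AdGFP replicate 4 reached 7.33 normalised CPM, the others 4.16 to 4.60. None of these libraries was left out of the main fit for that reason.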

How the results depend on the processing

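Counts of genes changed over the whole table were 34 by limma, 33 by edgeR's quasi-likelihood test, 66 by its exact test and 75 by DESeq2, which also gave 1 of the 36 genes (Xiap) and 1 other pathway gene (Txn2). At an adjusted limma p of at most 0.1 there were 46 genes and none of the 36. With library size alone, 6 of the 36 had an unadjusted p under 0.05 (Card6, Gsdmd, Nod1, Rela and Txnip higher, Xiap lower), beside 13.1% of all genes, and the median log2 fold change was 0.14 against 0.09 over all genes; without sample weights it was 0.029. Leaving out 1 library at a time gave 1 to 5 genes with an unadjusted limma p under 0.05, beside 7.785% to 12.13% of all genes. It gave 2 to 4 genes whose groups did not overlap. Separation is easier with fewer libraries, and the share of all genes was not counted for these fits. The replicate numbers did not pair libraries: deviations of same-numbered libraries correlated at 0.232, -0.0522, 0.218 and 0.000375, and not every library correlated best with its own number. With replicate number as a block, 41 genes were called, none of the 36. In that fit 2 of the 36 had an unadjusted limma p under 0.05, beside 9.625% of all genes. Of 612 recomputed estimates of the 36 genes, 553 kept direction and side of the threshold, 58 changed sign, and 1, Xiap by DESeq2, passed the threshold; 21 genes never changed sign. The cause of these moves was not tested.

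With library size alone, log2 fold changes that changed sign were 0.0073 for Nlrp6, 0.033 for Map3k7, 0.069 for Traf6, 0.078 for Mapk14 and 0.059 for Sugt1. With the replicate block they were 0.012 for Il1b, -0.065 for Tnfaip3, -0.0022 for Mapk9 and 0.018 for Mapk14. The quasi-likelihood test gave 0.019 for Traf6, -0.076 for Ccl5, -0.0039 for Mapk8 and 0.034 for Mapk14, the exact test 0.020, -0.077, -0.0030 and 0.034 for the same genes and -0.016 for Cxcl1, and DESeq2 0.023, -0.078, -0.00079 and 0.036 and again -0.016 for Cxcl1. Without the filter they were 0.0044 for Traf6 and -0.014 for Cxcl1. Without sample weights they were -0.083 for Cxcl1, -0.0019 for Mapk8, -0.00095 for Mapk9 and 0.028 for Mapk14. Leaving out 1 library at a time gave ranges that crossed 0 for Casp8 (-0.035 to 0.12), Il1b (-0.70 to 0.30), Tnfaip3 (-0.13 to 0.12), Map3k7 (-0.17 to 0.054), Tab1 (-0.068 to 0.34), Traf6 (-0.19 to 0.16), Birc2 (-0.076 to 0.095), Ccl5 (-0.28 to 0.30), Cxcl1 (-0.0021 to 0.35), Mapk8 (-0.0083 to 0.062), Mapk9 (-0.078 to 0.095), Mapk14 (-0.056 to 0.049), Sugt1 (-0.060 to 0.0080) and Hsp90aa1 (-0.25 to 0.023).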
